A study of Mus musculus with 16 samples.

Results

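The cytochrome P450, UDP-glucuronosyltransferase (UGT) and cytosolic sulfotransferase (SULT) genes were followed in mouse hepatoblasts exposed to sorafenib. They were chosen by gene symbol alone, taking P450s written as Cyp with a family number, a letter and a gene number, UGTs of the Ugt1a to Ugt3b kind and SULTs of the Sult1a to Sult6b kind, with pseudogenes left out. The count table held 135 such genes among 40840. Of these, 41 had at least 10 counts in total over 16 libraries and are the members described here, against 20444 genes of the whole table with that many counts. Cyp51, Tbxas1 and Ptgis are P450s whose symbols fall outside this pattern, and they are given with the supporting genes.

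The cells were p53-/-; Myc hepatoblasts, progenitors from mouse liver in which p53 is deleted and Myc is overexpressed, and they serve as a model of hepatocellular carcinoma (HCC). They are 1 cell line, so all 4 groups carried both changes and differed only in treatment and time. Treatment with sorafenib, a multikinase inhibitor given in advanced HCC, or with the vehicle DMSO lasted 48 hours or 7 days, and each of these groups had 4 replicate libraries. The labels did not say whether replicates were separate cultures, so p-values measured the spread between these libraries, which may be technical, and 48-hour and 7-day cells differed in harvest as well as in exposure, which cannot be told apart.

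P450s are heme enzymes of the endoplasmic reticulum and mitochondria that insert an oxygen atom into drugs, fatty acids, sterols, bile acids, retinoids and vitamin D, with electrons passed to them by P450 oxidoreductase or by adrenodoxin. UGTs join glucuronic acid from UDP-glucuronate to drugs, bilirubin, steroids and bile acids, and SULTs transfer sulfate from the donor PAPS, and both steps make the products easier to excrete. In the adult liver these families are among the abundant products of the hepatocyte, and they are switched on by liver transcription factors and by receptors for foreign compounds, bile acids and retinoic acid.

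Promoters are shown for members linked to a pair of receptor pathways, the aryl hydrocarbon receptor (AHR) for Cyp1b1 and Cyp1a1, and the retinoic acid receptors for Cyp26a1 and Cyp26b1, with Rarb, a retinoic acid receptor gene, beside them. The activity of these receptors was not measured. Each sequence is the 250 bases before the RefSeq transcript start, taken from the RefSeq promoter table of GRCm38.p6, written 5′ to 3′ along the gene, with its place in GRCm39 found by an exact match that occurred once. For Cyp26a1 (chr19:37686006-37686255, plus strand), Cyp26b1 (chr6:84570793-84571042, minus strand) and Rarb (chr14:5894037-5894286, plus strand), capitals mark AGTTCA or GGTTCA followed, after any 5 bases, by AGTTCA, on either strand, a direct repeat to which retinoic acid receptors are known to bind. For Cyp1b1 (chr17:80022491-80022740, minus strand) and Cyp1a1 (chr9:57604646-57604895, plus strand), capitals mark GCGTG on either strand, the core bound by AHR with ARNT. The starts of Rarb and Cyp1a1 lay 243747 and 9685 bases inside the longer gene models of GENCODE.
Cyp26a1: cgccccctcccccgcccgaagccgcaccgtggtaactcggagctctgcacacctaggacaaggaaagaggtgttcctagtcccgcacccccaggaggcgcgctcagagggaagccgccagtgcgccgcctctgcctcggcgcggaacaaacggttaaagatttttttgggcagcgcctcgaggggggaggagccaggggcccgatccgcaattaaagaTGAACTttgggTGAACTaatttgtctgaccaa
Cyp26b1: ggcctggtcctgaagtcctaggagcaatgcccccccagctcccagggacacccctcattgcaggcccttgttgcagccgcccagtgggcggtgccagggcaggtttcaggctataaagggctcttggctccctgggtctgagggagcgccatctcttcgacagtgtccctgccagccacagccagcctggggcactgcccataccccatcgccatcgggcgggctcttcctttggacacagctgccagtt
Rarb: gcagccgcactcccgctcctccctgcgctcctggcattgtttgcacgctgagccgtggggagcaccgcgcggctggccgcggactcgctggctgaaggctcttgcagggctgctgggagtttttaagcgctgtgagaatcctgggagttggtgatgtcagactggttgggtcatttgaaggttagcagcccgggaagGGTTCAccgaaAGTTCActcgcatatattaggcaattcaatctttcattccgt
Cyp1b1: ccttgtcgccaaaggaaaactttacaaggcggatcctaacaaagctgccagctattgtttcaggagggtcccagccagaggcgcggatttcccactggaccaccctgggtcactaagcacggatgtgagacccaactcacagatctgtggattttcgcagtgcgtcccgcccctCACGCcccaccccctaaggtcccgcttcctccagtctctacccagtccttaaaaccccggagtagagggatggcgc
Cyp1a1: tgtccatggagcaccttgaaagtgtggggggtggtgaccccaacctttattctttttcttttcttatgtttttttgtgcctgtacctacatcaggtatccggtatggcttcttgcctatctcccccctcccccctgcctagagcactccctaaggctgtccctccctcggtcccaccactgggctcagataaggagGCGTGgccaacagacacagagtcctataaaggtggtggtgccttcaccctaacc

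Cyp26a1 held 1 match to the repeat, Rarb held 1 and Cyp26b1 held 0. Both spellings of the repeat were chosen after the expression values had been seen. The spelling with AGTTCA on both sides occurred in 7 of 27025 genes with a RefSeq promoter (0.0259%) and in 1 of the 31 members that had one, and that with GGTTCA first in 2 of 27025 genes and in 0 of 31 members. GCGTG occurred in the promoters of 10 of 31 members (32.3%), Cyp1b1 and Cyp1a1 among them, against 30.9% of 27025 genes, a share near the background. The antioxidant response core TGACNNNGC was found in 0 of 31 members against 11.5% of genes, and the nuclear receptor half-site AGGTCA in 2 of 31, Ugt1a7c and Cyp2t4, against 15.8%. Both strands were searched for every motif. These matches describe letters in a window and were not tested as binding sites.

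Most genes of the 3 families gave no or almost no RNA in these cells. No counts in any of the 16 libraries were seen for 68 of the 135 genes, and 26 had 1 to 9 counts in total. Members made up 32 of 93 P450 genes, 3 of 21 UGT genes and 6 of 21 SULT genes, as the bar chart of detection shows. Cyp3a11 and Cyp7a1, the main drug-oxidizing P450 and the rate-limiting enzyme of bile acid synthesis in mouse liver, were among those at 0 counts, with the Ugt2b, Sult2a and Cyp4a genes among the 135. Cyp2e1, the ethanol-inducible P450, had 1 count in all, Cyp1a2 had 3, Cyp8b1, which makes the precursor of cholic acid, had 2, and Ugt1a1, the bilirubin UGT, had 8. A count of 0 in 1 library allows a level of up to 3 counts there, by counting error alone, and 0 in several libraries bounds the level more tightly. The floor of 3 counts per library used below is thus a cautious one for groups at 0.

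**Figure D1:**
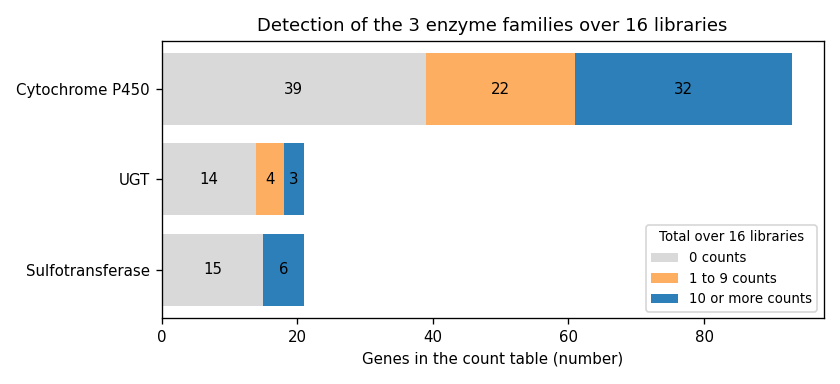
Number of genes in the count table (horizontal axis) for each enzyme family, split by the total count over 16 libraries. Members, with 10 or more counts, were 32 P450s, 3 UGTs and 6 SULTs, and the genes at 0 counts were 39, 14 and 15.

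Library totals ran from 16586254 to 30828427 counts. The hepatocyte markers Alb and Hnf4a were too low to be tested, Alb with group means of at most 0.449 normalized counts, while Dlk1, a hepatoblast marker, was at 32234 ± 841 (SD, n = 4) normalized counts with DMSO at 48 hours and Krt19, of progenitor and bile duct cells, at 2626 ± 110.1. In the same group Krt7 was at 1877 and Sox9 at 213, while Epcam was at 29.3 and Afp, also of hepatoblasts, at 0.217. Krt8 and Krt18 were at 114 and 286. Of the mesenchymal markers, Col1a1 was at 41939, Acta2 at 4683, Pdgfrb at 1668 and Des at 89.5. The cells thus carried some progenitor markers and mesenchymal ones, with little of other progenitor markers and little or no Alb and Hnf4a. The blood markers Ptprc, Adgre1 and Cd3e were at or near 0, with Cd68 at 68.3. Of the marker lists, the sum over 8 hepatoblast and hepatocyte genes was 31850 to 33370 with DMSO and 10020 to 11760 with sorafenib at 48 hours, and 16490 to 18380 and 4178 to 4343 at 7 days. Nearly all of this sum was Dlk1, with means of 32234, 10444, 16766 and 4020 in that order. The sum over 4 mesenchymal genes, led by Acta2 and Col1a1, was 46650 to 49750 and 133200 to 154500 at 48 hours, and 66080 to 67900 and 114400 to 119400 at 7 days. Against this rise Pdgfrb was lower with sorafenib at both times and Des at 7 days. Sums over 5 bile duct and progenitor genes were 4675 to 4959 and 2725 to 2839, then 5516 to 5886 and 2121 to 2295, and those over 3 endothelial genes, with Cdh5 at or near 0, were 43.0 to 75.6 and 115.2 to 142.1, then 28.1 to 39.7 and 185.6 to 221.7. Against the bile duct fall Sox9 was higher with sorafenib at both times and Spp1 at 48 hours, and Kdr gave most of the endothelial sums. The part of these shifts in the results on members was not tested, and in bulk RNA fewer cells of a kind and less RNA per cell cannot be told apart.

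By chromosome, 1 library stood apart. In sorafenib at 48 hours replicate 2, genes on chromosomes 15 to 19 and X were at 0.605 times the level of genes on chromosomes 1 to 13, relative to the mean of the other 3 libraries of its group, and held 14.1% of counts against 20.5% to 21.3% elsewhere. Of the members, 17 lie on those chromosomes, and their 48-hour values are also given without this library where they matter.

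The members together took 0.0235% to 0.0336% of a library's counts. Cyp1b1, Cyp2s1 and Cyp20a1 gave 78.9% to 91.5% of that, UGTs 21 to 190 counts in a library and SULTs 30 to 99. Per kilobase of exon, Cyp2s1 had the highest level with DMSO at 48 hours (637 normalized counts per kilobase), followed by Cyp20a1 (383), Cyp1b1 (198), Cyp39a1 (138) and Cyp2d22 (86.8). With sorafenib at 7 days the order was Cyp1b1 (517), Cyp20a1 (401) and Cyp2s1 (85.0), and Cyp2d22 was at 1.65. The next members were each at most 37.6 normalized counts per kilobase in DMSO at 48 hours.

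At 48 hours, 18 of 41 members changed with sorafenib (43.9%), 9 up and 9 down, where 54.6% of all tested genes did, 26.9% up and 27.7% down. A gene was called changed at an FDR under 0.05, the Benjamini-Hochberg adjusted p of edgeR's quasi-likelihood test over 20444 genes, and FDR has this meaning throughout, with log2 fold changes given ± the standard error. At 7 days, 21 members changed (51.2%), 13 up and 8 down, against 56.8% of all genes, 28.9% up and 27.9% down. The median log2 fold change of the members was -0.10 at 48 hours and 0.49 at 7 days, beside -0.05 and 0.02 over all tested genes. Sorafenib and DMSO libraries did not overlap for 16 members at 48 hours, where 48.0% of all genes did not, and for 18 at 7 days, where 56.8% did not. The members' shares were thus near or below the background, and 25 members averaged under 20 normalized counts over the 16 libraries. Of the 16 with a higher mean, 13 changed at 48 hours and 14 at 7 days, beside 73.8% and 74.4% of all genes at that level.

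Between the times, 14 members changed at both, 6 of them up both times, 5 down both times and 3 in opposite directions. The members up at both times were Cyp27a1, Cyp2u1, Cyp4f17, Cyp46a1, Ugt1a6a and Ugt1a7c, those down were Cyp2d22, Cyp2s1, Cyp39a1, Cyp26a1 and Sult4a1, and those that turned were Cyp20a1, Cyp4f13 and Cyp4f16. Another 4 changed at 48 hours alone, 7 at 7 days alone and 16 at neither time, which is not a test of a difference between the times. These counts stand beside 54.6% of all tested genes called at 48 hours and 56.8% at 7 days. They are not read as a trait of the members. That test, the interaction of treatment and time, called 12 members, 6 higher and 6 lower at 7 days, against 36.8% of all genes, 15.5% higher and 21.3% lower. The members higher were Cyp26b1, Cyp27a1, Cyp46a1, Cyp4f13, Cyp4f16 and Cyp4f17, and those lower were Cyp1b1, Cyp20a1, Cyp2b10, Cyp2d22, Cyp2s1 and Ugt1a6a. Leaving out 1 library also brought in Cyp4v3 without sorafenib at 48 hours replicate 1 (FDR 0.0251), and Ugt1a6b (FDR 0.0237) and Cyp2w1 (FDR 0.0268) without DMSO at 48 hours replicate 3.

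**Figure D2:**
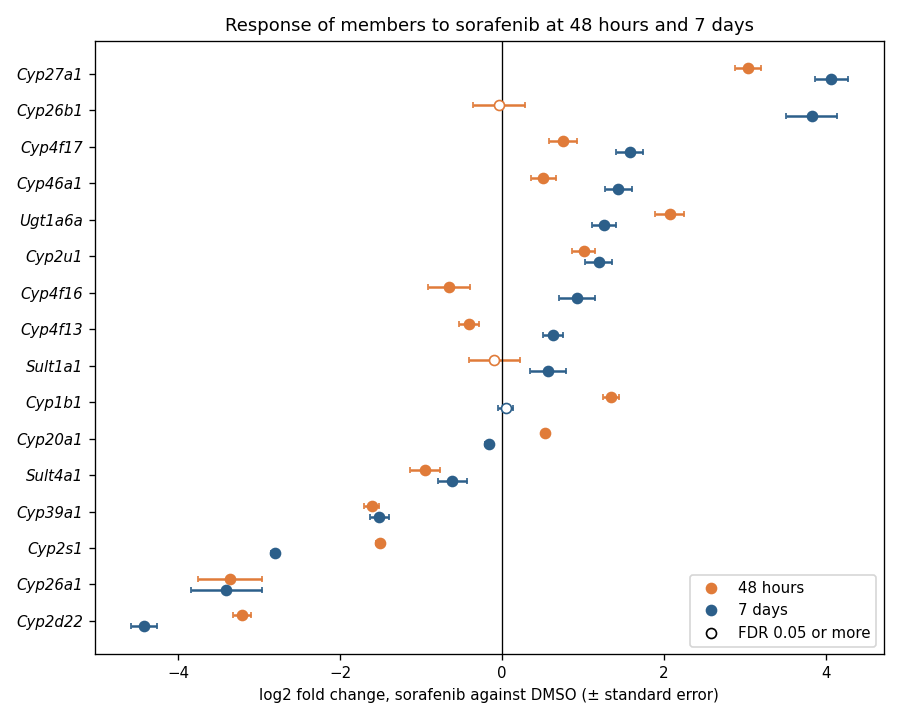
log2 fold change of sorafenib against DMSO with its standard error (horizontal axis) for the 16 members that changed at either time and had a group mean of at least 20 normalized counts. Orange points are 48 hours and blue points 7 days, and open points did not pass an FDR of 0.05. Cyp27a1 lay at 3.04 and 4.07 and Cyp2d22 at -3.21 and -4.42.

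Among P450s of foreign compounds, 2 of 10 members changed at 48 hours (20%, beside 54.6% of all tested genes), 1 up and 1 down, and 5 at 7 days (50%, beside 56.8%), 2 up and 3 down. Cyp1b1, an AHR target that oxidizes polycyclic hydrocarbons and estrogens, rose 2.54-fold at 48 hours. Its gene lies at chromosome 17, 80008966 to 80022532 in GRCm39. Normalized counts were 1373, 1411, 1513 and 1439.6 with DMSO and 3885, 2525, 4083 and 4058 with sorafenib at 48 hours. Every sorafenib library lay above every DMSO library, and the lowest of them was replicate 2. The log2 fold change was 1.35 ± 0.10 (FDR 3.08e-10), and 1.48 (FDR 2.83e-39) without that library. At 7 days the values were 3631, 3638, 3632 and 3592 with DMSO and 3775, 3783, 3778 and 3626 with sorafenib. The groups overlapped, and the difference did not pass the test (log2 0.05 ± 0.09, FDR 0.704). The 8 libraries of 7 days lay below the sorafenib libraries of 48 hours other than replicate 2, which averaged 4009 ± 108 (SD, n = 3). DMSO cells themselves rose between 48 hours and 7 days, by a log2 fold change of 1.34 ± 0.10 (FDR 6.10e-10), and the interaction was -1.30 ± 0.14 (FDR 2.05e-07).

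Cyp1a1, the classical AHR target whose promoter is shown beside that of Cyp1b1, stayed near 0. It had 0, 0, 3 and 0 counts with DMSO and 0, 0, 2 and 2 with sorafenib at 48 hours, and 5, 8, 4 and 2 with DMSO and 3, 2, 5 and 3 with sorafenib at 7 days. Neither drug comparison passed the test (FDR 0.64 and 0.533). Its rise with time in DMSO cells passed (log2 2.45 ± 0.85, FDR 0.021), on 3 and 19 counts over 4 libraries each, and did not pass without DMSO at 48 hours replicate 1, 2 or 4 or DMSO at 7 days replicate 2, with FDRs of 0.058 to 0.0728. By counting, sorafenib against DMSO gave ratios of 1.74 at 48 hours (95% exact interval 0.294 to 11.9) and 0.692 at 7 days (0.314 to 1.48).

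Cyp2d22, a mouse member of the CYP2D drug-oxidizing family at chromosome 15, 82254727 to 82264597, had the largest fall at 7 days among the members with a group mean of at least 20. Its normalized counts were 431, 406, 416 and 467 with DMSO and 60.3, 31.8, 45.7 and 46.6 with sorafenib at 48 hours. At 7 days they were 190.3, 169.6, 167 and 184 with DMSO and 7.87, 6.50, 11.4 and 6.89 with sorafenib. Sorafenib libraries lay far below DMSO libraries at both times, and DMSO itself was lower at 7 days. The fall was 9.33-fold at 48 hours (log2 -3.21 ± 0.11, FDR 2.66e-15; -3.10, FDR 1.10e-28 without replicate 2) and 21.8-fold at 7 days (log2 -4.42 ± 0.16, FDR 6.95e-15), and the interaction was -1.20 ± 0.25 (FDR 0.000662).

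The other xenobiotic P450s were low. Cyp2c55 had 3, 1, 0 and 0 counts with DMSO and 0, 2, 1 and 1 with sorafenib at 48 hours, then 0, 1, 3 and 5 with DMSO and 10, 9, 6 and 10 with sorafenib at 7 days, a rise at 7 days (log2 1.94 ± 0.63, FDR 0.0136). Cyp2c37 had 3, 1, 5 and 2 with DMSO and 1, 0, 0 and 1 with sorafenib counts at 48 hours, then 4, 7, 10 and 4 with DMSO at 7 days and 0 in all 4 sorafenib libraries. Against a floor of 3 counts per library its level at 7 days was at least 1.99-fold lower (FDR 0.000151). Cyp2c55 and Cyp2c37, both of the Cyp2c cluster on chromosome 19, thus moved in opposite directions at 7 days. Cyp2b10, the marker gene of the receptor CAR, was called lower at 7 days (FDR 0.00305) from a mean of 2.31 normalized counts, which is itself under the floor of 3 counts per library, and its interaction (FDR 0.0301) was lost without sorafenib at 48 hours replicate 3 (FDR 0.202) or sorafenib at 7 days replicate 2 (FDR 0.0507). Cyp2c65 was called higher at 7 days (FDR 0.0405) on 1 count against 8 over 4 libraries, and its call was lost in 4 of the fits that left out a library, without DMSO at 7 days replicates 1, 2 and 4 and without sorafenib at 48 hours replicate 2. Cyp2t4 had normalized counts of 8.80, 3.47, 9.19 and 16.4 with DMSO and 5.61, 4.54, 7.61 and 2.27 with sorafenib at 48 hours, and 4.32, 11.99, 9.495 and 5.57 with DMSO and 13.5, 4.87, 7.00 and 10.8 with sorafenib at 7 days. Its groups overlapped and it passed at neither time, though its 48-hour comparison did without DMSO at 48 hours replicate 2 (FDR 0.0483). It shares 98.2% of its exon bases with Egln2 on the other strand, so its counts are uncertain where strand was not used.

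**Figure D3:**
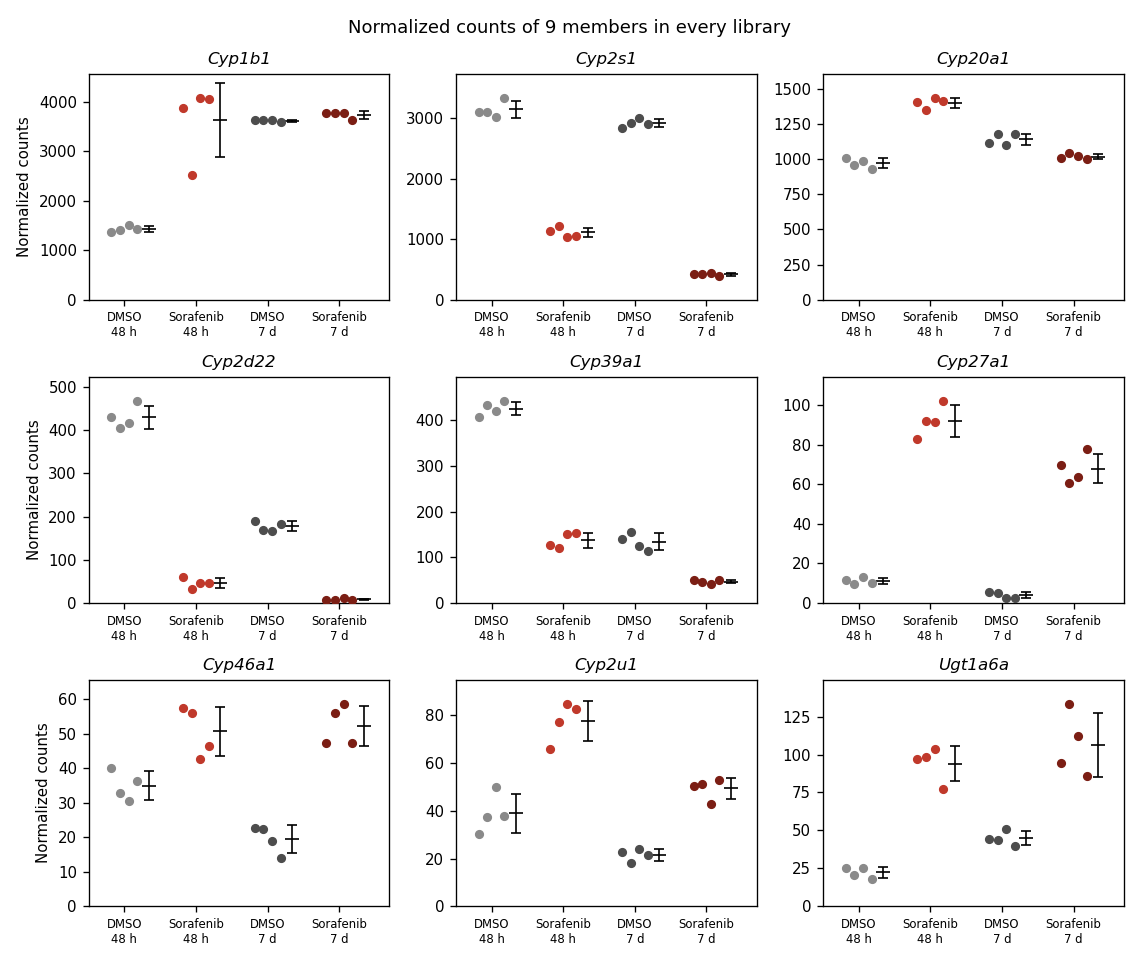
Normalized counts (vertical axis, from 0, scaled per gene) of 9 members in every library, 4 points per group, with the mean ± SD beside them. Cyp1b1 with sorafenib at 48 hours held 1 low library at 2525, and Cyp2d22, Cyp2s1 and Cyp39a1 were lower with sorafenib than with DMSO at both times.

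Of the P450s of fatty acids and eicosanoids, 6 of 11 members changed at 48 hours (54.5%, beside 54.6% of all tested genes), 2 up and 4 down, and 5 at 7 days (45.5%, beside 56.8%), 4 up and 1 down. Without sorafenib at 48 hours replicate 2, only 2 were down at 48 hours, since Cyp4f16 and Cyp2w1 no longer passed. Their median log2 fold change was -0.41 and then 0.63. Cyp2s1, a P450 that acts on prostaglandin endoperoxides and retinoids, lies at chromosome 7, 25501895 to 25516338. Its normalized counts were 3115, 3113, 3027 and 3342 with DMSO and 1137, 1217, 1043 and 1059.6 with sorafenib at 48 hours. At 7 days they were 2850.1, 2925, 3009 and 2912 with DMSO and 431, 419.9, 436 and 394 with sorafenib. The sorafenib groups were tight and well below DMSO at both times, and lower at 7 days than at 48 hours. The fall was 2.83-fold at 48 hours (log2 -1.50 ± 0.05, FDR 4.74e-16) and 6.96-fold at 7 days (log2 -2.80 ± 0.05, FDR 1.11e-19), and its deepening passed the interaction test at -1.30 ± 0.07 (FDR 9.79e-12). The change between the DMSO groups was small (log2 -0.11 ± 0.04, FDR 0.0515), and it did pass in 7 other fits, 5 of them without 1 library.

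The Cyp4f genes, which hydroxylate leukotrienes and fatty acids at their far end, sit together on chromosome 17. Cyp4f17 had normalized counts of 36.2, 27.8, 38.8 and 26.8 with DMSO and 57.5, 54.4, 51.4 and 54.5 with sorafenib at 48 hours, then 18.4, 31.7, 24.2 and 18.6 with DMSO and 69.7, 83.7, 61.2 and 65.9 with sorafenib. It was higher in every sorafenib library at both times, by log2 0.76 ± 0.17 (FDR 0.000966) and 1.58 ± 0.17 (FDR 9.51e-08). Cyp4f13 had 130.00, 138, 136 and 155 with DMSO and 108, 77.1, 119 and 111 with sorafenib at 48 hours, then 63.8, 54.8, 77.7 and 76.98 with DMSO and 114, 102, 107 and 101 with sorafenib. Its sorafenib libraries were all lower at 48 hours (log2 -0.41 ± 0.12, FDR 0.00651; -0.30, FDR 0.0228 without replicate 2) and all higher at 7 days (log2 0.63 ± 0.13, FDR 0.00026), where DMSO was at its lowest.

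Cyp4f16 had 62.6, 51.2, 58.2 and 73.5 with DMSO and 32.3, 9.07, 63.8 and 39.8 with sorafenib at 48 hours, then 48.7, 47.97, 48.3 and 43.6 with DMSO and 86.6, 90.96, 87.5 and 92.5 with sorafenib. At 48 hours the groups overlapped and replicate 2 was far below the rest. The fall there (log2 -0.65 ± 0.26, FDR 0.0367) was lost without that library (log2 -0.39, FDR 0.0557), and also without DMSO at 48 hours replicate 1 or 4 or sorafenib replicate 1 or 4, with FDRs of 0.0526 to 0.0947. At 7 days every sorafenib library was higher (log2 0.92 ± 0.22, FDR 0.00129). The interaction was called for all 3 genes, at 0.82 ± 0.25 (FDR 0.0124) for Cyp4f17, 1.04 ± 0.17 (FDR 7.53e-05) for Cyp4f13 and 1.58 ± 0.34 (FDR 0.00087) for Cyp4f16. Cyp4f39, of the same cluster, had 16 counts in all and passed in no comparison.

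Cyp2u1, a hydroxylase of long-chain fatty acids at chromosome 3, 131082090 to 131096876, had 30.3, 37.3, 50.03 and 38.02 with DMSO and 65.9, 77.1, 84.7 and 82.9 with sorafenib at 48 hours. At 7 days it had 22.7, 17.99, 24.2 and 21.3 with DMSO and 50.6, 51.2, 42.9 and 53.1 with sorafenib. All sorafenib libraries were above all DMSO libraries at each time, and both treatments were lower at 7 days. The rise was 2.00-fold (log2 1.01 ± 0.14, FDR 4.25e-06) and 2.29-fold (log2 1.19 ± 0.17, FDR 3.25e-06), with an interaction of 0.18 ± 0.22 (FDR 0.595).

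The remaining fatty acid P450s had group means under 10 normalized counts. Cyp2j6, an arachidonic acid epoxygenase, had normalized counts of 5.86, 6.07, 3.06 and 2.59 with DMSO and 1.40, 7.56, 4.76 and 1.14 with sorafenib at 48 hours, then 4.32, 3.43, 2.59 and 4.64 with DMSO and 6.75, 11.4, 2.62 and 5.90 with sorafenib at 7 days. Cyp4v3 had 6.84, 6.94, 9.19 and 8.64 with DMSO and 11.2, 1.51, 5.71 and 1.14 with sorafenib, then 10.8, 5.996, 4.32 and 2.78 and 5.62, 9.75, 8.75 and 15.7. The groups of both genes overlapped at each time, and neither passed a drug comparison. Cyp4b1 had 0, 1, 0 and 0 counts with DMSO and 1, 0, 1 and 0 with sorafenib at 48 hours, then 4, 5, 3 and 3 with DMSO and 5, 3, 7 and 3 with sorafenib. It passed with time alone, from 1 count over the 4 DMSO libraries at 48 hours to 15 at 7 days (log2 3.34 ± 0.83, FDR 0.00212). Cyp2w1 was called lower at 48 hours (FDR 0.0345) on 6 counts against 0, under the floor of 3 counts per library. That call was lost in 5 of the fits that left out a library (FDR 0.0519 to 0.15), namely without DMSO at 48 hours replicate 1 and without each of the 4 sorafenib libraries of that time. Cyp4x1 had 11 counts in all and passed in no comparison.

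Among the P450s of sterols, bile acids, steroids, vitamin D and retinoids, 4 of 10 members changed at 48 hours (40%, beside 54.6% of all tested genes), 2 up and 2 down, and 6 at 7 days (60%, beside 56.8%), 4 up and 2 down. The 3 oxysterol and cholesterol hydroxylases moved both ways. Cyp27a1, the mitochondrial sterol 27-hydroxylase of the acidic bile acid pathway, at chromosome 1, 74752314 to 74777056, had the largest rise of the members with a group mean of at least 20. Its normalized counts were 11.7, 9.54, 13.3 and 10.4 with DMSO and 82.8, 92.2, 91.4 and 102 with sorafenib at 48 hours. At 7 days they were 5.41, 5.14, 2.59 and 2.78 with DMSO and 69.7, 60.9, 63.8 and 77.7 with sorafenib. The groups were far apart at both times. The rise was 8.21-fold (log2 3.04 ± 0.16, FDR 2.36e-12) and 17.1-fold (log2 4.07 ± 0.21, FDR 8.91e-13). The interaction of 1.03 ± 0.32 (FDR 0.0298) was lost without DMSO at 48 hours replicate 3 (log2 0.97, FDR 0.0583) and without DMSO at 7 days replicate 3 or 4 (FDR 0.104 and 0.0874). Exons of Prkag3 on the other strand cover 32.8% of the exon bases of Cyp27a1.

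Cyp39a1, the oxysterol 7-alpha-hydroxylase that prefers 24-hydroxycholesterol, at chromosome 17, 43978281 to 44062322, fell instead. It had 407, 432, 421 and 442 with DMSO and 126, 121, 151 and 152 with sorafenib at 48 hours, and 141, 156, 125 and 113 with DMSO and 49.5, 46.3, 41.98 and 50.2 with sorafenib at 7 days. Sorafenib libraries were lower at each time, and DMSO at 7 days stood where sorafenib had stood at 48 hours. The log2 fold change was -1.61 ± 0.09 (FDR 4.44e-12) at 48 hours (-1.56, FDR 3.54e-20 without replicate 2) and -1.51 ± 0.12 (FDR 8.01e-10) at 7 days, and the DMSO change with time was -1.67 ± 0.09 (FDR 3.86e-12). Cyp46a1, which makes 24-hydroxycholesterol from cholesterol, had 40.1, 32.97, 30.6 and 36.3 with DMSO and 57.5, 55.9, 42.8 and 46.6 with sorafenib at 48 hours, and 22.7, 22.3, 18.99 and 13.9 with DMSO and 47.2, 56.04, 58.6 and 47.2 with sorafenib at 7 days. It was higher in every sorafenib library, by log2 0.51 ± 0.16 (FDR 0.00968) and then 1.43 ± 0.17 (FDR 3.10e-07), and the interaction was 0.92 ± 0.23 (FDR 0.00354).

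The retinoic acid hydroxylases Cyp26a1 and Cyp26b1, which break down retinoic acid, moved in opposite directions at 7 days. Cyp26a1 had normalized counts of 33.2, 30.4, 26.5 and 25.9 with DMSO and 5.61, 0, 2.86 and 2.27 with sorafenib at 48 hours. At 7 days it had 14.1, 18.8, 18.1 and 22.3 with DMSO and 0, 3.25, 0.875 and 1.97 with sorafenib. It was almost lost with sorafenib at both times. Raw counts over 4 libraries were 125 against 9 at 48 hours, a level 10.6-fold lower by counting (95% exact interval 5.43 to 23.8), and 80 against 7 at 7 days, 11.3-fold lower (5.24 to 29.0), intervals that cover counting error only. The log2 fold changes were -3.36 ± 0.40 (FDR 4.04e-07) (-3.04, FDR 3.90e-09 without replicate 2) and -3.40 ± 0.44 (FDR 1.36e-06).

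Cyp26b1 had 23.5, 8.68, 14.3 and 17.3 with DMSO and 15.4, 13.6, 15.2 and 17.04 with sorafenib at 48 hours, where the groups overlapped (log2 -0.04 ± 0.32, FDR 0.938). At 7 days it had 2.16, 3.43, 5.18 and 4.64 with DMSO and 33.7, 70.7, 56.9 and 63.9 with sorafenib. Every sorafenib library was above every DMSO library, while DMSO had fallen since 48 hours (log2 -1.98 ± 0.41, FDR 0.000384). The rise at 7 days was 14.6-fold (log2 3.82 ± 0.32, FDR 2.40e-09) and the interaction was 3.86 ± 0.48 (FDR 2.14e-06). Cyp26c1, the third gene of this kind, had 22 counts in all and passed in no comparison.

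Rarb, the receptor gene whose promoter carries the repeat shown above with that of Cyp26a1, had 686, 648, 635 and 622 with DMSO and 115, 75.6, 51.4 and 59.1 with sorafenib at 48 hours. At 7 days it had 252, 201, 205 and 239 with DMSO and 27.00, 29.2, 30.6 and 31.5 with sorafenib. Like Cyp26a1 it was low in every sorafenib library, and fell in the DMSO groups with time. Its log2 fold changes were -3.15 ± 0.14 (FDR 7.40e-14) and -2.91 ± 0.17 (FDR 8.05e-12). Rara changed by -0.61 ± 0.06 (FDR 5.17e-08) and -0.03 ± 0.06 (FDR 0.692), and Rarg, on chromosome 15, by -0.27 ± 0.08 (FDR 0.00833) (-0.16 without replicate 2) and 0.90 ± 0.08 (FDR 1.19e-08). What links the fall of Cyp26a1 and Rarb was not tested.

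**Figure D4:**
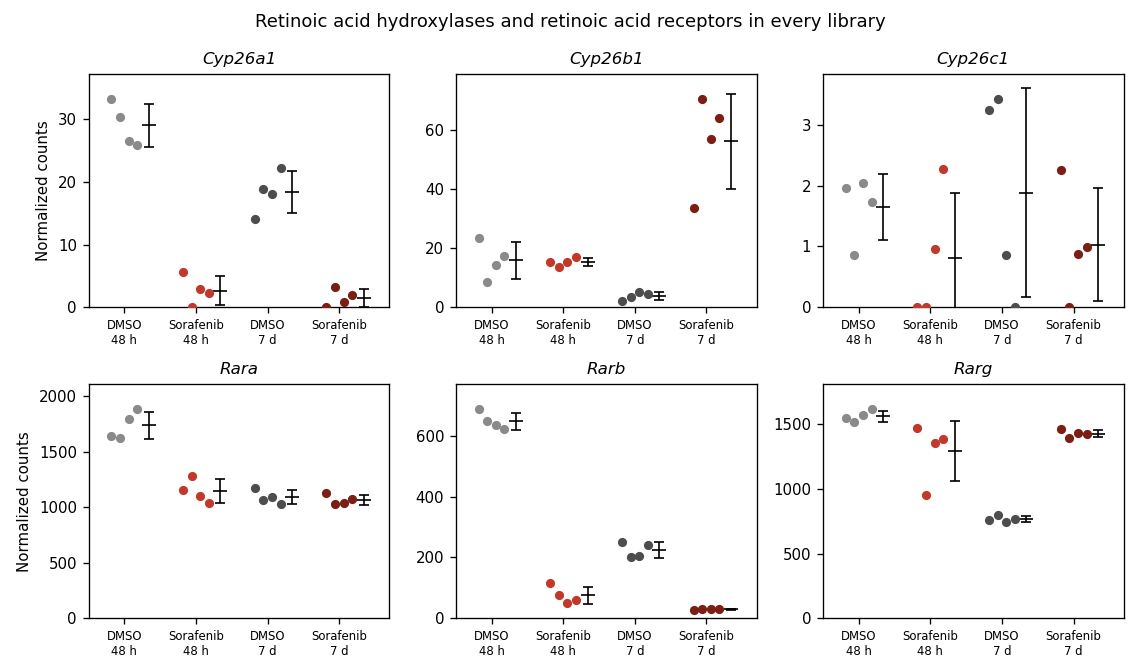
Normalized counts (vertical axis, from 0, scaled per gene) of 3 retinoic acid hydroxylases and 3 retinoic acid receptors in every library, 4 points per group with the mean ± SD, bars cut at 0. Cyp26a1 and Rarb were low with sorafenib at both times, and Cyp26b1 was high with sorafenib at 7 days alone.

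The vitamin D enzymes had few calls with sorafenib. Cyp27b1, which makes the active hormone, had 86.02, 91.1, 121 and 89.01 with DMSO and 70.2, 103, 101 and 85.2 with sorafenib at 48 hours, and 35.7, 58.2, 63.01 and 43.6 with DMSO and 67.5, 73.9, 51.6 and 62.96 with sorafenib at 7 days. The groups overlapped at both times and the drug comparisons did not pass (log2 -0.10 ± 0.16, FDR 0.642 and 0.33 ± 0.18, FDR 0.129), while DMSO fell with time by log2 -0.92 ± 0.17 (FDR 0.00012). Cyp24a1, which inactivates the hormone, had 0 counts in every DMSO library and 0, 1, 1 and 1 in the sorafenib libraries at 48 hours, then 2, 0, 0 and 0 with DMSO and 1, 6, 6 and 2 with sorafenib at 7 days. The ratio at 7 days was 7.58 by counting (95% exact interval 1.76 to 68.4). Its call there (log2 2.60 ± 0.91, FDR 0.0225) was lost with DESeq2 (adjusted p 0.054), and without DMSO at 7 days replicate 2, 3 or 4 or sorafenib replicate 2 or 3, with FDRs of 0.0583 to 0.0657.

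Cyp2r1, a vitamin D 25-hydroxylase, had normalized counts of 7.82, 3.47, 6.13 and 4.32 with DMSO and 1.40, 3.02, 5.71 and 2.27 with sorafenib at 48 hours, and 2.16, 3.43, 0 and 0 with DMSO and 2.25, 3.25, 5.25 and 0.984 with sorafenib at 7 days. Its groups overlapped and it passed neither drug comparison. It fell with time in DMSO cells (log2 -1.86 ± 0.69, FDR 0.031), a call lost without DMSO at 48 hours replicate 1 or 3 or DMSO at 7 days replicate 3 or 4. Cyp17a1, of steroid hormone synthesis, had 15 counts in all and passed in no comparison, but its 48-hour comparison did without DMSO at 48 hours replicate 2 (FDR 0.0393). Its interaction also passed without that library, DMSO at 7 days replicate 1, sorafenib at 48 hours replicate 2 or sorafenib at 7 days replicate 3, with FDRs of 0.0263 to 0.0469.

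Cyp20a1, a P450 without a settled substrate, lies at chromosome 1, 60382444 to 60427224. It had 1009, 957, 990.3 and 933 with DMSO and 1407, 1349, 1436 and 1413 with sorafenib at 48 hours, and 1115, 1178, 1102 and 1176 with DMSO and 1007, 1044, 1021 and 1000.4 with sorafenib at 7 days. Sorafenib was above DMSO at 48 hours and below it at 7 days, without overlap. The changes were small, log2 0.53 ± 0.04 (FDR 3.15e-10) and -0.17 ± 0.04 (FDR 0.000936), and differed by -0.70 ± 0.05 (FDR 3.55e-09) in the interaction test.

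All 3 UGT members belong to the Ugt1a cluster at the same place on chromosome 1, where each gene has its own first exon and shares the rest. Ugt1a6a, which conjugates planar phenols, had 25.4, 20.8, 25.5 and 18.1 with DMSO and 96.8, 98.3, 104 and 77.2 with sorafenib at 48 hours. At 7 days it had 44.3, 43.7, 50.9 and 39.9 with DMSO and 94.5, 133, 112 and 85.6 with sorafenib. Sorafenib libraries were above DMSO at each time, and DMSO rose between the times. The rise was 4.18-fold at 48 hours (log2 2.07 ± 0.18, FDR 3.54e-09) and 2.38-fold at 7 days (log2 1.26 ± 0.15, FDR 3.06e-07), smaller at 7 days by the interaction test (-0.81 ± 0.24, FDR 0.0106).

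Ugt1a7c had 2, 1, 1 and 0 counts with DMSO and 2, 3, 3 and 5 with sorafenib at 48 hours, then 5, 4, 7 and 5 with DMSO and 11, 22, 16 and 10 with sorafenib at 7 days. It was higher with sorafenib at both times (log2 1.95 ± 0.62, FDR 0.0118 and 1.47 ± 0.34, FDR 0.00102), and the 48-hour call was lost without DMSO replicate 4 (FDR 0.0644) or sorafenib replicate 4 (FDR 0.0622). Ugt1a6b had 0, 0, 1 and 0 with DMSO and 3, 2, 3 and 3 with sorafenib counts at 48 hours, then 1, 4, 3 and 2 with DMSO and 5, 4, 7 and 4 with sorafenib, and was called at 48 hours (log2 3.28 ± 0.79, FDR 0.00142), where 1 count stood against 11, a ratio of 14.3 by counting (95% exact interval 2.09 to 618). Ugt1a6a, Ugt1a6b and Ugt1a7c share 41.3%, 66.1% and 54.2% of their exon bases with each of several other Ugt1a genes on the same strand. Among the 3 members, Ugt1a6a shares 56.6% and Ugt1a6b 69.7% with Ugt1a7c, and Ugt1a7c shares 74.2% with Ugt1a6a. How reads were split among them is thus uncertain, and the genes are not independent. All 3 rose in DMSO cells between 48 hours and 7 days, by log2 1.00 ± 0.19 (FDR 0.000209), 2.24 ± 0.56 (FDR 0.00237) and 2.77 ± 0.81 (FDR 0.00878) for Ugt1a6a, Ugt1a7c and Ugt1a6b.

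SULTs were few and low. At 48 hours 0 of 6 rose and 2 fell, and at 7 days 1 rose and 1 fell, so that 33.3% were called each time, beside 54.6% and 56.8% of all tested genes. Sult4a1, a brain-type sulfotransferase, had 44.96, 35.6, 36.8 and 49.3 with DMSO and 23.9, 21.2, 19.99 and 21.6 with sorafenib at 48 hours, then 29.2, 30.84, 41.4 and 38.96 with DMSO and 27.00, 17.1, 23.6 and 25.6 with sorafenib. It was lower in every sorafenib library (log2 -0.95 ± 0.19, FDR 0.00022 and -0.62 ± 0.18, FDR 0.00639). Sult1a1, the phenol sulfotransferase, had 20.5, 16.5, 13.3 and 17.3 with DMSO and 22.4, 13.6, 8.57 and 20.4 with sorafenib at 48 hours, where groups overlapped (log2 -0.10 ± 0.31, FDR 0.824), then 27.03, 29.98, 22.4 and 35.2 with DMSO and 50.6, 30.05, 37.6 and 55.1 with sorafenib. The rise at 7 days (log2 0.57 ± 0.22, FDR 0.0348), with overlapping groups, was lost without DMSO at 7 days replicate 1, 2 or 3 or sorafenib replicate 1 or 4, with FDRs of 0.0537 to 0.135.

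Sult5a1 had 6, 4, 7 and 9 counts with DMSO and 1, 0, 1 and 0 with sorafenib at 48 hours, 9.96-fold lower by counting (95% exact interval 2.49 to 86.6; FDR 0.00175), and in 7-day cells 1, 1, 0 and 0 with DMSO and 0, 0, 0 and 1 with sorafenib. It was also nearly lost with time in DMSO cells (log2 -3.39 ± 0.73, FDR 0.000617). Sult2b1, which sulfates cholesterol, had normalized counts of 9.77, 12.1, 16.3 and 2.59 with DMSO and 8.42, 10.6, 12.4 and 10.2 with sorafenib at 48 hours, then 1.08, 2.57, 6.04 and 7.42 with DMSO and 8.999, 7.31, 5.25 and 12.8 with sorafenib at 7 days. Its groups overlapped at 48 hours and at 7 days, and it had no call. The 11 members not given by library had 10 to 22 counts in all and group means of at most 2.31, and apart from Cyp2w1, Cyp2b10 and Cyp2c65 none was called in the drug comparisons.

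With DMSO alone, 19 of 41 members differed between 7 days and 48 hours (46.3%), 8 higher and 11 lower, against 49.4% of all tested genes, 23.9% higher and 25.5% lower. The 2 DMSO groups did not overlap for 20 members, where 50.8% of all genes did not. Of the sterol, steroid, vitamin D and retinoid P450s, 7 of 10 fell, where 25.5% of all tested genes did, and 0 rose, with a median log2 fold change of -1.20. They were Cyp39a1, Cyp27a1 (-1.47 ± 0.30, FDR 0.000325), Cyp46a1 (-0.85 ± 0.18, FDR 0.000505), Cyp27b1, Cyp26b1, Cyp2r1 and Cyp26a1 (-0.65 ± 0.25, FDR 0.0399), the last lost in 6 fits that left out a DMSO library, with FDRs of 0.0506 to 0.104, and kept without DMSO at 48 hours replicate 4 or DMSO at 7 days replicate 4. Cyp2d22 (-1.28 ± 0.09, FDR 1.80e-10), Cyp4f13 (-1.03 ± 0.12, FDR 5.41e-07), Cyp2u1 (-0.85 ± 0.17, FDR 0.000353) and Sult5a1 also fell. Cyp1b1, Cyp1a1, the 3 UGTs, Cyp4b1, Cyp20a1 (0.23 ± 0.04, FDR 3.48e-05) and Sult1a1 (0.76 ± 0.26, FDR 0.0218) rose, the last lost without DMSO at 48 hours replicate 3 or DMSO at 7 days replicate 4. Left out singly, DMSO at 48 hours replicate 3 brought in Cyp2c37 (FDR 0.0463), DMSO at 48 hours replicate 4 brought in Cyp4f17 (FDR 0.0395) and Sult2b1 (FDR 0.00655), DMSO at 7 days replicate 2 or 4 brought in Cyp4f17 (FDR 0.0123) or Sult2b1 (FDR 0.0308), and sorafenib at 48 hours replicate 2 brought in Cyp4f16 (FDR 0.0317) and Sult2b1 (FDR 0.0292). These DMSO libraries are also the controls of the drug comparisons.

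Genes that supply or control the enzymes were mostly abundant, and their called shares stand beside 73.8% at 48 hours and 74.4% at 7 days of all genes with a mean of at least 20. Of 9 electron donors and partners, 2 rose and 3 fell at 48 hours (55.6% called), and 1 rose and 6 fell at 7 days (77.8% called). At 48 hours 3 rose and 3 fell without sorafenib replicate 2 (66.7% called). Over all tested genes of any mean the share was 57.0% without that library and 54.6% with it. These shares are not to be set against the 73.8% above, which is of genes with a mean of at least 20. Pgrmc1, on chromosome X, passed without that library (0.19, FDR 1.16e-08). Por, the reductase that serves the microsomal P450s, was at 4222 ± 73.9 with DMSO and 1469 ± 47.6 with sorafenib at 48 hours (SD, n = 4), and 3470.03 ± 62.7 and 1396 ± 35.6 at 7 days. It fell by log2 changes of -1.52 ± 0.03 (FDR 1.59e-18) and -1.31 ± 0.03 (FDR 1.11e-17). Fdxr, which feeds the mitochondrial P450s such as Cyp27a1, fell as well (-0.78 ± 0.06, FDR 5.98e-10 and -1.55 ± 0.06, FDR 1.89e-14), and Cyb5r3, the cytochrome b5 reductase, rose (0.51 ± 0.10, FDR 0.000242 and 0.55 ± 0.10, FDR 9.69e-05). For Cyb5r3, on chromosome 15, the 48-hour value was 0.65 without sorafenib replicate 2.

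Heme genes were split, with 3 of 12 up and 6 down at 48 hours and 5 up and 4 down at 7 days, 75% called each time. At 48 hours 4 were up and 6 down without sorafenib replicate 2 (83.3% called). Over all tested genes of any mean the share was 57.0% without that library and 54.6% with it. Fech, on chromosome 18, passed without that library (0.22, FDR 1.83e-07). Alad, the second enzyme of heme synthesis, went from 2759 ± 117 to 1185 ± 16.5 at 48 hours and from 3067 ± 107 to 831 ± 39.4 at 7 days (-1.22 ± 0.04, FDR 1.46e-15 and -1.89 ± 0.04, FDR 1.96e-18). Cpox, a later enzyme, rose (1.05 ± 0.09, FDR 7.37e-09 and 0.99 ± 0.09, FDR 1.25e-08), and Alas1, the rate-limiting first enzyme, rose at 7 days (0.91 ± 0.05, FDR 3.29e-12) and did not pass at 48 hours (0.04 ± 0.05, FDR 0.538). For Cpox, on chromosome 16, the 48-hour value was 1.18 without sorafenib replicate 2.

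Of 6 genes of glucuronate supply or removal and nucleotide transport, 4 rose and 0 fell at 48 hours, and 1 rose and 3 fell at 7 days, 66.7% called each time. Slc35b1, a nucleotide transporter of the endoplasmic reticulum, rose at 48 hours (0.71 ± 0.06, FDR 8.63e-10), as did Slc35d1, a carrier of UDP-glucuronate (0.37 ± 0.06, FDR 2.82e-05), and Ugp2, which makes UDP-glucose, fell at 7 days (-0.29 ± 0.04, FDR 1.10e-06). Ugdh, which makes UDP-glucuronate, was at 3265 ± 62.5 and 3157 ± 121 at 48 hours and changed by -0.05 ± 0.03 (FDR 0.236) and -0.25 ± 0.03 (FDR 1.68e-06); it and Papss2 below were picked for their role, outside the rule of size. Of 11 genes of PAPS supply, sulfate removal and protein-tyrosine sulfation, 3 rose and 6 fell at 48 hours, and 5 rose and 4 fell at 7 days, 81.8% called each time. Tpst2, a protein-tyrosine sulfotransferase, rose (0.97 ± 0.07, FDR 1.71e-10 and 0.89 ± 0.06, FDR 2.48e-10), as did Papss2, a PAPS synthase (1.59 ± 0.16, FDR 3.15e-08 and 1.11 ± 0.14, FDR 1.05e-06), while Sts, the steroid sulfatase, fell at 48 hours (-0.74 ± 0.14, FDR 0.000138) and Tpst1 at both times (-0.47 ± 0.04, FDR 1.57e-09 and -0.68 ± 0.04, FDR 5.49e-12). Papss2 and Sts stood at 1.69 and -0.66 at 48 hours without sorafenib replicate 2, and the counts called in this list stayed the same.

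**Figure D5:**
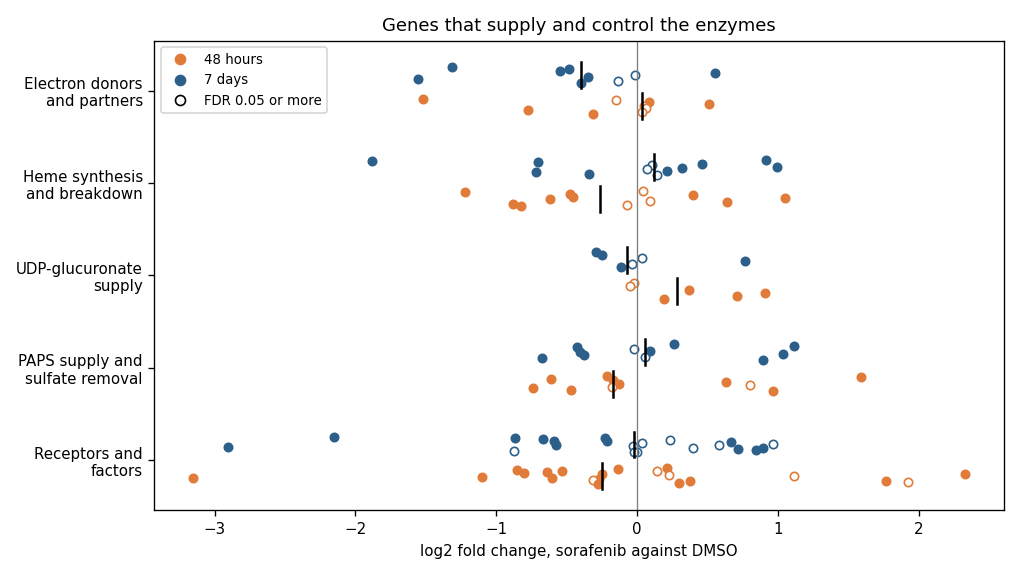
log2 fold change of sorafenib against DMSO (horizontal axis) for the genes of 5 lists that supply or control the enzymes, 1 point per gene, orange for 48 hours and blue for 7 days. Black bars are list medians and open points did not pass an FDR of 0.05. Among electron donors the 7-day median was -0.40, and Rarb and Ahr lay farthest left among the receptors and factors at 7 days.

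Of 25 receptors and factors that control these enzymes, 21 had enough counts to test. Nr1i2, the pregnane X receptor, Nr0b2, Hnf4a and Onecut1 did not. At 48 hours 5 rose and 11 fell (76.2% called), and at 7 days 4 rose and 8 fell (57.1% called). Ahr, the receptor upstream of Cyp1b1, was at 1383 ± 57.7 with DMSO and 1607 ± 97.99 with sorafenib at 48 hours, and 2861 ± 93.04 and 644 ± 37.98 at 7 days. It rose slightly at 48 hours (0.21 ± 0.05, FDR 0.000888) and fell at 7 days (-2.15 ± 0.05, FDR 5.56e-18), when Cyp1b1 did not differ by the test. The AHR targets Ahrr and Tiparp, named for that role after their values were seen, were lower with sorafenib at both times. Ahrr changed by -0.86 ± 0.16 (FDR 0.000161) and -0.87 ± 0.19 (FDR 0.000478). Tiparp changed by -0.53 ± 0.04 (FDR 1.67e-10) and -0.67 ± 0.04 (FDR 3.18e-12). With time in DMSO cells, Ahr (1.05 ± 0.05, FDR 5.86e-13) and Tiparp (0.10 ± 0.04, FDR 0.0241) rose, as Cyp1b1 did, and Ahrr fell (-0.72 ± 0.15, FDR 0.000507). What links these genes to Cyp1b1 was not tested. Nr1h4, the bile acid receptor, rose from 36.8 ± 6.74 to 187 ± 25.3 at 48 hours and from 131 ± 9.61 to 208 ± 11.2 at 7 days (2.33 ± 0.13, FDR 4.10e-12 and 0.67 ± 0.10, FDR 8.39e-06), while its direct target Nr0b2 had too few counts to test.

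Of the P450s with other symbols, Cyp51, the lanosterol demethylase of cholesterol synthesis, fell from 10602 ± 196 to 4473 ± 118 at 48 hours and from 10199.9 ± 115 to 2044 ± 98.6 at 7 days (-1.25 ± 0.03, FDR 3.90e-17 and -2.32 ± 0.03, FDR 6.27e-21). Ptgis, the prostacyclin synthase, changed by 0.27 ± 0.03 (FDR 5.53e-07) and -0.70 ± 0.03 (FDR 2.32e-13). Tbxas1, given outside the rule of size, had a mean of 14.1 normalized counts. It passed at neither time (0.51 ± 0.34, FDR 0.226 and 0.48 ± 0.26, FDR 0.121). Cyp51 thus fell at both times, as the sterol P450 Cyp39a1 did, while Cyp27a1 and Cyp46a1 rose.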

How the data were processed

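Poly(A) RNA of 16 libraries, 4 in each of 4 groups, was sequenced from Illumina stranded mRNA libraries on a NovaSeq. The deposited values are raw counts per gene, made by the authors without normalization or pooling. The submitters' processing notes name STAR 2.7.1a, featureCounts 2.0.6, DESeq2 1.40.2 and GRCm39. The strand setting, the treatment of reads with several places and the annotation version were not given in the sources used here.

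Genes with fewer than 10 counts in total were removed (20396 of 40840). The quasi-likelihood test of edgeR 4.0.16 in R 4.3.3 was run on TMM-normalized libraries, all 16 in a single model with 1 coefficient per group, and p-values were adjusted by Benjamini-Hochberg over 20444 genes. Contrasts were sorafenib against DMSO at each time, their difference, and DMSO at 7 days against 48 hours. Normalized counts are raw counts over the effective library size (total and TMM factor multiplied), rescaled so that effective sizes have a geometric mean of 1, and the standard error is the log2 fold change over the square root of F. Counting intervals are exact binomial ones on counts summed over 4 libraries. Positions and exon lengths come from GENCODE vM39.

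Values are given by library for the 30 members with the highest group mean, and for the 5 called members with the largest log2 fold change at each time among those with a group mean of at least 20. Other members are given by counts. From each list of other genes, the 3 called genes with the largest log2 fold change among those with a mean of at least 100 are named, and exceptions are stated. The members, lists and tests were chosen with earlier results of these data known. The alternatives were DESeq2 1.42.0, its size factors, total counts only, no filter beyond 1 count, a minimum of 10 counts in each of the libraries, a further threshold of 1 on the size of the log2 fold change, a fit to the 8 libraries of 1 time, a block for the replicate number, and each library left out in turn. The steps were checked on simulated data. Replicates differed by more than counting error, with a chi-square per gene of at least 1.49 between any pair of a group. It was largest, 41.4 to 55.0, between DMSO at 7 days replicate 4 and the rest of its group. For sorafenib at 48 hours replicate 2 it was 27.0 to 30.7. Pairs of DMSO at 48 hours ran from 4.19 to 32.7, lowest between replicates 1 and 4 and between 2 and 3.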

Additional observations from a re-analysis of the deposited data

Results flagged for a closer look

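Values that stood apart within a group of 4 libraries were sought in 67 groups, by the gap of the highest or lowest library to its nearest neighbour relative to the group's range (Dixon's test), a rule by which chance alone picks about 1 in 20 groups. It picked 5. Cyp1b1 was lowest in sorafenib at 48 hours replicate 2 at 2525 normalized counts, the library with low counts on chromosomes 15 to 19 and X. Cyp1b1 was also lowest in DMSO at 7 days replicate 4 at 3592 and in sorafenib at 7 days replicate 4 at 3626, in groups whose other libraries lay within a few counts of each other. Cyp27b1 was highest in DMSO at 48 hours replicate 3 at 121.5, and Cyp4f16 was lowest in DMSO at 7 days replicate 4 at 43.6.

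The response to sorafenib differed between 7 days and 48 hours, by the interaction of treatment and time in edgeR's quasi-likelihood test, for 11 members with values by library. On the log2 scale the response at 7 days was lower by an interaction of -1.30 for Cyp1b1, -1.30 for Cyp2s1, -1.20 for Cyp2d22, -0.81 for Ugt1a6a and -0.70 for Cyp20a1. It was higher by 3.86 for Cyp26b1, 1.58 for Cyp4f16, 1.04 for Cyp4f13, 1.03 for Cyp27a1, 0.92 for Cyp46a1 and 0.82 for Cyp4f17. Between the times the DMSO libraries rose for Cyp1b1, Ugt1a6a and Cyp20a1, and fell for Cyp26b1, Cyp27a1, Cyp46a1, Cyp4f13 and Cyp2d22. For Cyp2s1, Cyp4f16 and Cyp4f17 the DMSO change was not called, though it passed in some alternative fits. The 48-hour and 7-day cells differed in culture time and harvest as well, which cannot be told apart from exposure.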

How the results depend on the processing

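The counts of called members kept within 1.5 times of those in the report under most alternatives, and no called change of a named member with sorafenib turned its direction under any of them. Requiring at least 10 counts in every sample left 11 members to test. It then called 10 at 48 hours (6 higher, 4 lower), 9 at 7 days (5 higher, 4 lower), 7 in the interaction (3 higher, 4 lower) and 10 between the DMSO groups (3 higher, 7 lower). When calls also needed a log2 fold change of 1 or more in size, 7 members were lower in DMSO at 7 days than at 48 hours. With each library left out in turn, 15 to 20 members were called at 48 hours (8 to 9 higher, 7 to 11 lower), 18 to 21 at 7 days (10 to 13 higher, 8 lower), 11 to 13 in the interaction (5 to 7 higher, 5 to 7 lower) and 16 to 22 between the DMSO groups (7 to 8 higher, 9 to 14 lower). Scaling by total counts moved the median log2 fold change over all genes to -0.12 at 48 hours and to 0.12 in the interaction, and called 18, 21, 12 and 22 members in these comparisons.

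For the 2 drug comparisons of the 30 members given by library, 1315 log2 fold changes under the alternatives stayed on the same side of the threshold, 21 lost their call and 1 gained one. The calls lost there were those of Cyp4f16 and Ugt1a7c at 48 hours and of Cyp24a1 and Sult1a1 at 7 days, and the one gained was that of Cyp2t4 at 48 hours. Calls of the interaction and between the DMSO groups that changed when 1 library was left out are given in the report. Cyp4f16 also lost its call at 48 hours with no filter beyond 1 count (FDR 0.0549) and with only the 8 libraries of that time (FDR 0.13). With DESeq2 the counts were 17, 19, 11 and 19.

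Replicate numbers are shared by all groups. Deviations of same-numbered sorafenib and DMSO libraries correlated at -0.0497 to 0.0144 at 48 hours and at -0.00564 to 0.128 at 7 days over 10646 genes, so the numbers were not taken to pair the libraries, and not every library correlated best with its own number. With the replicate number as a block, 17 members were called at 48 hours (9 higher, 8 lower), 19 at 7 days (11 higher, 8 lower) and 11 in the interaction (6 higher, 5 lower). The calls of Cyp2w1 at 48 hours and of Cyp24a1 and Cyp2c65 at 7 days did not pass there. That block was set within each time. A block for the number shared by all groups, added after seeing the data, called 18 members between the DMSO groups (8 higher, 10 lower), without Cyp26a1 (FDR 0.0736).

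Depth limited the low members most, since 25 of 41 averaged under 20 normalized counts and a floor of 3 counts per library stood at 2.44 to 4.54 normalized counts. The labels did not name separate cultures, and the strand setting of the counting was not given, which leaves genes with exons on both strands uncertain.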
